A study of Mus musculus with 6 samples.

Results

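The matrix proteases and their inhibitors were taken as every gene of the count table whose symbol starts with Mmp, Adamts or Timp followed by a digit, which gave 46 of 51826 genes: 23 matrix metalloproteinases (MMPs), 19 ADAMTS proteases and 4 tissue inhibitors of metalloproteinases (TIMPs). They were followed in ovaries of ICR mice, an outbred strain, by bulk RNA sequencing of 6 libraries in 3 groups of 2. The group labelled COH, an abbreviation that the labels do not spell out, carries no model or agent. The OHSS group is a model of ovarian hyperstimulation syndrome, and the last group is the same model given nintedanib (bibf1120), an inhibitor of the receptor tyrosine kinases for VEGF, PDGF and FGF. Ages, hormone schedules, drug dose and time of collection are not stated in the labels. Whether the 2 libraries of each group are separate animals is not stated either, so p-values cover the spread between libraries alone, and that spread may be technical.

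MMPs are zinc-dependent enzymes that cut collagens, laminins and other matrix proteins, either as secreted proenzymes or anchored in the cell membrane. ADAMTS proteases are secreted enzymes with thrombospondin repeats that cut proteoglycans such as versican or trim procollagens. TIMPs bind the active site of MMPs and of some ADAMTS proteases and block it. In the ovary the balance between proteases and TIMPs is known for its part in thinning of the follicle wall before ovulation, in the growth of vessels into the corpus luteum and in the breakdown of old corpora lutea.

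Total counts per library ran from 28498435 to 34716751, and the members together took 2318 to 3079 CPM (counts scaled by TMM factors to a common effective library size). Mitochondrial transcripts took 5.21 to 7.10% of counts. All 8 granulosa, 8 luteal, 7 theca and stroma and 6 endothelial markers had counts, and the 5 oviduct markers summed to at most 5.85 CPM. In bulk tissue, fewer cells of a type and less RNA per cell cannot be told apart. The 2 libraries of a group differed beyond counting error in every group, with a chi-square per degree of freedom of 35.4 in COH, 82.4 in OHSS and 74.0 with nintedanib, and the OHSS pair stood far apart for several members below.

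Of the 46 members, 32 reached a mean of 1 CPM over the 6 libraries, namely 12 MMPs, 16 ADAMTS genes and all 4 TIMPs. The other 14 were low. Mmp1a, Mmp1b, Mmp7, Mmp20 and Mmp21 had no count in any library, and Mmp3, Mmp8, Mmp10, Mmp24, Mmp25, Mmp27, Adamts8, Adamts13 and Adamts18 had counts but stayed under 1 CPM on average. The highest value of a low member in a single library was 0.935 CPM, for Mmp25 in the second nintedanib library. Low members therefore include the interstitial collagenases Mmp1a, Mmp1b and Mmp8, the stromelysins Mmp3 and Mmp10, the matrilysin Mmp7, the tooth enamel protease Mmp20 and Adamts13, which cuts von Willebrand factor. Mmp1a and Mmp1b are close copies of each other, so their reads may have been treated as ambiguous. Mmp13, with a mean of 2.49 CPM, was the one collagenase above the limit, and Mmp12, the macrophage elastase, had a mean of 2.32 CPM.

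Many of the low MMP genes lie together on chromosome 9. The RefSeq promoter table for GRCm38.p6, with 250 bases before and 50 after each gene's start, held 32 of the 46 members. Adamts4, Adamts5, Adamts6, Adamts7, Adamts8, Adamts10, Adamts15, Adamts16, Adamts19, Mmp2, Mmp9, Mmp16, Mmp17 and Mmp19 were not matched. The letters TGAGTCA, the site of the Fos and Jun factor AP-1, searched on both strands (TGACTCA is the same site read from the other strand), were found in 7 of the 32 members, against 5.2% of 32851 promoters in the table. All 7 are MMP genes on chromosome 9, and 5 of them were under 1 CPM, beside 8 of the 25 members without the letters. The chromosome 9 MMPs without the letters, Mmp8, Mmp20 and Mmp27, were all under 1 CPM too, while Mmp12 and Mmp13, which hold them, were above it. AP-1 is a known activator of collagenase and stromelysin genes. These 7 are printed because they share the site; each line gives the 100 bases before the start, 5′ to 3′ on the gene's strand, with the AP-1 letters and any TATAAA in capitals.
Mmp3, chr9:7445722-7445821, plus strand: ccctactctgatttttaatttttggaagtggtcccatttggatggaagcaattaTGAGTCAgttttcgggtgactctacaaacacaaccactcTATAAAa
Mmp10, chr9:7502242-7502341, plus strand: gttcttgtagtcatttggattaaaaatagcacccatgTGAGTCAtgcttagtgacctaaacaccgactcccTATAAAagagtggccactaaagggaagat
Mmp12, chr9:7347274-7347373, plus strand: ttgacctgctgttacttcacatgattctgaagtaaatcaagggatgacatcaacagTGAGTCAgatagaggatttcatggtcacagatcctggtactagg
Mmp13, chr9:7272414-7272513, plus strand: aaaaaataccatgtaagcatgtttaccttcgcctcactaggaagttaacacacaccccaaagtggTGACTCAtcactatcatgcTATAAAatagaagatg
Mmp1a, chr9:7464041-7464140, plus strand: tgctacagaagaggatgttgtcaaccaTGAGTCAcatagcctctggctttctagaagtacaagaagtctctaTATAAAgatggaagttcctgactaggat
Mmp1b, chr9:7388027-7388126, minus strand: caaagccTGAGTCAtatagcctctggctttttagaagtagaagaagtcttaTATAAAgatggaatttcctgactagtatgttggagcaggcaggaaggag
Mmp7, chr9:7691990-7692089, plus strand: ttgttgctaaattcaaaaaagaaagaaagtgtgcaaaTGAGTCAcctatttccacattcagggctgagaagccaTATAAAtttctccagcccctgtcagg

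The AP-1 letters began 35 bases before the start in Mmp13, 44 in Mmp12, 46 in Mmp3, 63 in Mmp10 and Mmp7, 73 in Mmp1a and 93 in Mmp1b. Of the 10 MMP members on chromosome 9 with a promoter in the table, 7 held the AP-1 letters, 9 held TATAAA on either strand of the 300 bases and 0 held the GC box GGGCGG, and the highest mean among them was 2.49 CPM. Among the other 22 members with a promoter, 0 held the AP-1 letters, 2 held TATAAA and 18 held a GC box, and the highest mean was 423 CPM. A GC box did not mark abundant members alone, since 4 of these 18 (Adamts13, Adamts18, Mmp24 and Mmp25) were under 1 CPM. Across all 32851 promoters, TATAAA was found in 13.6% and GGGCGG in 35.7%. These are matches of letters, not measured binding, and the genes of 1 cluster share ancestry, so they are not independent examples.

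**Figure D1:**
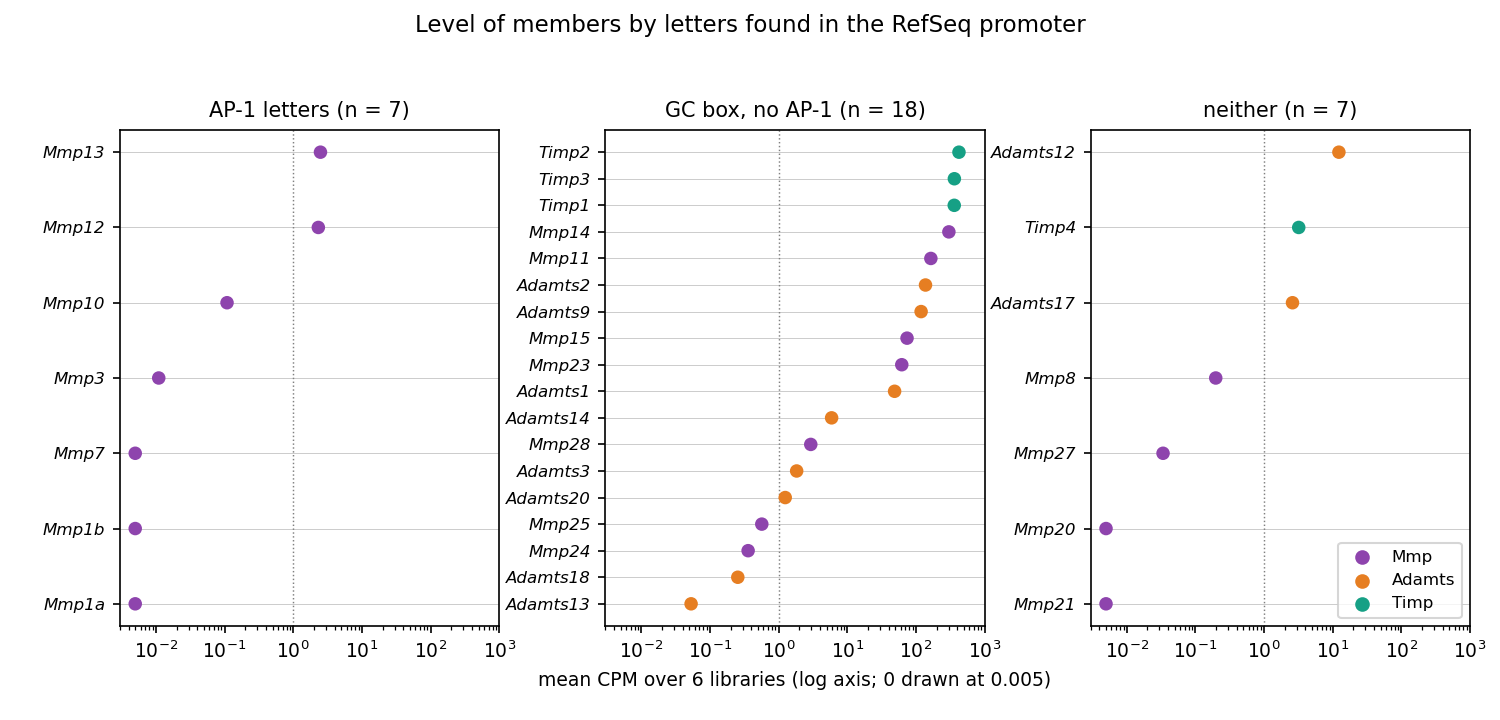
Mean CPM over the 6 libraries (log axis) of the 32 members with a RefSeq promoter, split by letters found on either strand: AP-1 letters, a GC box without AP-1 letters, or neither; colours mark Mmp, Adamts and Timp genes and the dotted line is 1 CPM. The 7 members with AP-1 letters reach 2.49 CPM at most, while Timp2, at the top of those with a GC box, is at 423 CPM.

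Abundant members are printed for contrast, with the 150 bases before the start and any GC box or TATAAA in capitals.
Timp1, chrX:20870016-20870165, plus strand: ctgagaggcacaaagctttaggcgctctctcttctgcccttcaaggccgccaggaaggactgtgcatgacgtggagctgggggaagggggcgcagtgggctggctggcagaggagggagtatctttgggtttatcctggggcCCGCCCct
Timp2, chr11:118355412-118355561, minus strand: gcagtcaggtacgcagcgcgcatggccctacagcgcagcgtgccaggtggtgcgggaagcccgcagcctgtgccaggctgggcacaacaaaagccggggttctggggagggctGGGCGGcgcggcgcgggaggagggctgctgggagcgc
Mmp14, chr14:54431448-54431597, plus strand: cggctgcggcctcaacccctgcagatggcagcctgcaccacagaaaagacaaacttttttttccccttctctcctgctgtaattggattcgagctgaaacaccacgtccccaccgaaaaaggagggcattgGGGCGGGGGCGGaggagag
Mmp11, chr10:75932503-75932652, minus strand: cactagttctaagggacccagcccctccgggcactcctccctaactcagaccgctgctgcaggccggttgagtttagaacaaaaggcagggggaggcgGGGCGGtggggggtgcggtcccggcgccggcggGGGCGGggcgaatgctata
Adamts1, chr16:85803114-85803263, minus strand: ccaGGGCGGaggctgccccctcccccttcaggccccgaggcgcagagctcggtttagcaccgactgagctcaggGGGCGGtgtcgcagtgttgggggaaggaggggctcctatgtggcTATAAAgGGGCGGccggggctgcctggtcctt

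Timp1 has 1 GC box in this window, read from the other strand (CCGCCC), Timp2 has 1, and Mmp14 and Mmp11 have 2 each. In Mmp14 the 2 boxes adjoin. Adamts1 has 3 GC boxes and also a TATAAA, which it shares with the chromosome 9 MMPs.

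Levels of different genes were compared per kilobase of exon (CPM per kb, from GENCODE M21 exon lengths). The inhibitors led. Timp1, a secreted inhibitor that the ovulatory hormone surge is known to induce, had a mean of 407 CPM per kb over the 6 libraries, and it made up 59.0 to 81.4% of the summed TIMP level. Timp2, which both inhibits and helps to activate Mmp2, had 109 CPM per kb. The gelatinase Mmp2 followed at 105, Mmp11 (stromelysin 3) at 59.4, the membrane-anchored Mmp14 at 50.6 and the matrix-bound inhibitor Timp3 at 44.5 CPM per kb. The group means of Timp2 (98.9 to 115) and Mmp2 (83.6 to 144) overlapped, so their order does not hold across groups. Nor does that of Mmp11, Mmp14 and Timp3: Mmp11 was above Mmp14 in COH (85.3 against 54.8) and below it in OHSS (49.3 against 51.7) and with nintedanib (43.6 against 45.4), and Timp3 (54.3) was above both in OHSS. Mmp23 stood at 26.6, Mmp15 at 13.7 and Mmp19 at 11.7 CPM per kb. The leading ADAMTS genes were Adamts2 at 14.8, Adamts10 at 12.6, Adamts1 at 9.22, Adamts9 at 7.90 and Adamts7 at 6.31 CPM per kb over the 6 libraries. Adamts1 was above Adamts9 with nintedanib (13.2 against 7.80) but not in COH (6.51 against 7.84) or OHSS (7.93 against 8.07), and Adamts7 (9.36) was above both in OHSS. The gelatinase Mmp9 was far lower at 1.27, and Timp4 at 0.543 CPM per kb. Mmp2, Mmp14, Mmp11 and Mmp23 together made up 86.3 to 90.3% of the summed MMP level in each library.

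**Figure D2:**
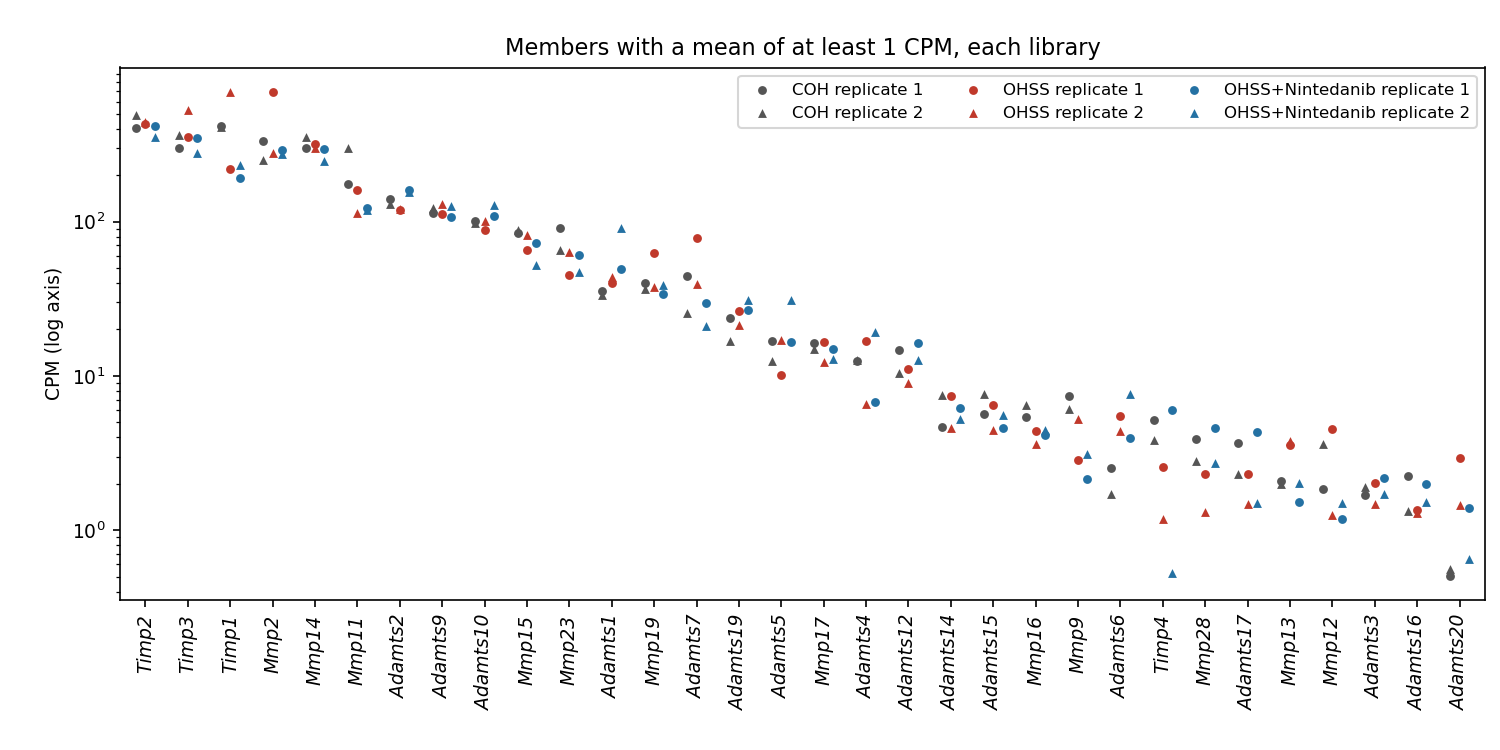
CPM (log axis) of the 32 members with a mean of at least 1 CPM in each of the 6 libraries, ordered by mean; colour marks the group, circles replicate 1 and triangles replicate 2. Timp1, Mmp2, Adamts4 and Mmp12 spread widely between the 2 OHSS libraries and Timp4 between the 2 nintedanib libraries, while Timp2 and Adamts9 stayed closer together.

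OHSS against COH asks which members differ in the syndrome model, OHSS with nintedanib against OHSS asks what differs when the drug is given, and OHSS with nintedanib against COH sets the treated model beside the reference. The first 2 comparisons share the OHSS libraries, the first and last share COH, and the last 2 share the nintedanib libraries, so their values are set side by side only. A high value in the OHSS libraries raises the first comparison and lowers the second. Opposite directions in these 2 are therefore not independent results. Tests ran on 19027 genes that passed a filter on low counts, among them 37 members (15 MMPs, 18 ADAMTS genes and 4 TIMPs). With p-values of edgeR's quasi-likelihood F test adjusted over all genes (Benjamini-Hochberg), 0 members passed 0.05 in any of the 3 comparisons. The background was as sparse: 0.0105% of all genes passed for OHSS against COH, 0.00526% for nintedanib against OHSS and 0.0263% for nintedanib against COH. At an unadjusted p under 0.05, 5 members passed in each comparison, or 13.5% of the 37, against 8.82%, 7.42% and 9.7% of all genes. Of these, 4 were higher and 1 lower in OHSS than in COH (4.59% and 4.24% of all genes), 2 higher and 3 lower with nintedanib than in OHSS (3.95% and 3.47%), and 2 higher and 3 lower with nintedanib than in COH (5.62% and 4.08%). They were Adamts20, Adamts6, Mmp13, Mmp24 and Mmp11 in the first comparison, Adamts1, Adamts2, Adamts7, Mmp13 and Mmp8 in the second, and Adamts1, Adamts6, Mmp11, Mmp8 and Mmp9 in the third. Mmp24 had only 4 to 17 counts per library. It shares 637 of its 4683 exon bases with BC029722 on the other strand, which had 17848 counts. Whether counting used strand is not stated, so the Mmp24 values are uncertain. DESeq2 called 0, 1 and 0 members in the same order, against 1.89%, 1.17% and 2.36% of all genes, and 5, 6 and 7 passed its unadjusted p (10.2%, 8.9% and 11.5% of all genes). With limma voom 0 were called in each, against 0%, 0.00526% and 0.0105% of all genes, and 5, 5 and 6 passed its unadjusted p (8.33%, 7.12% and 9.29%). The directions below are therefore differences between measured means that missed the test, unless stated, and a missed test does not show that the levels were alike.

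**Figure D3:**
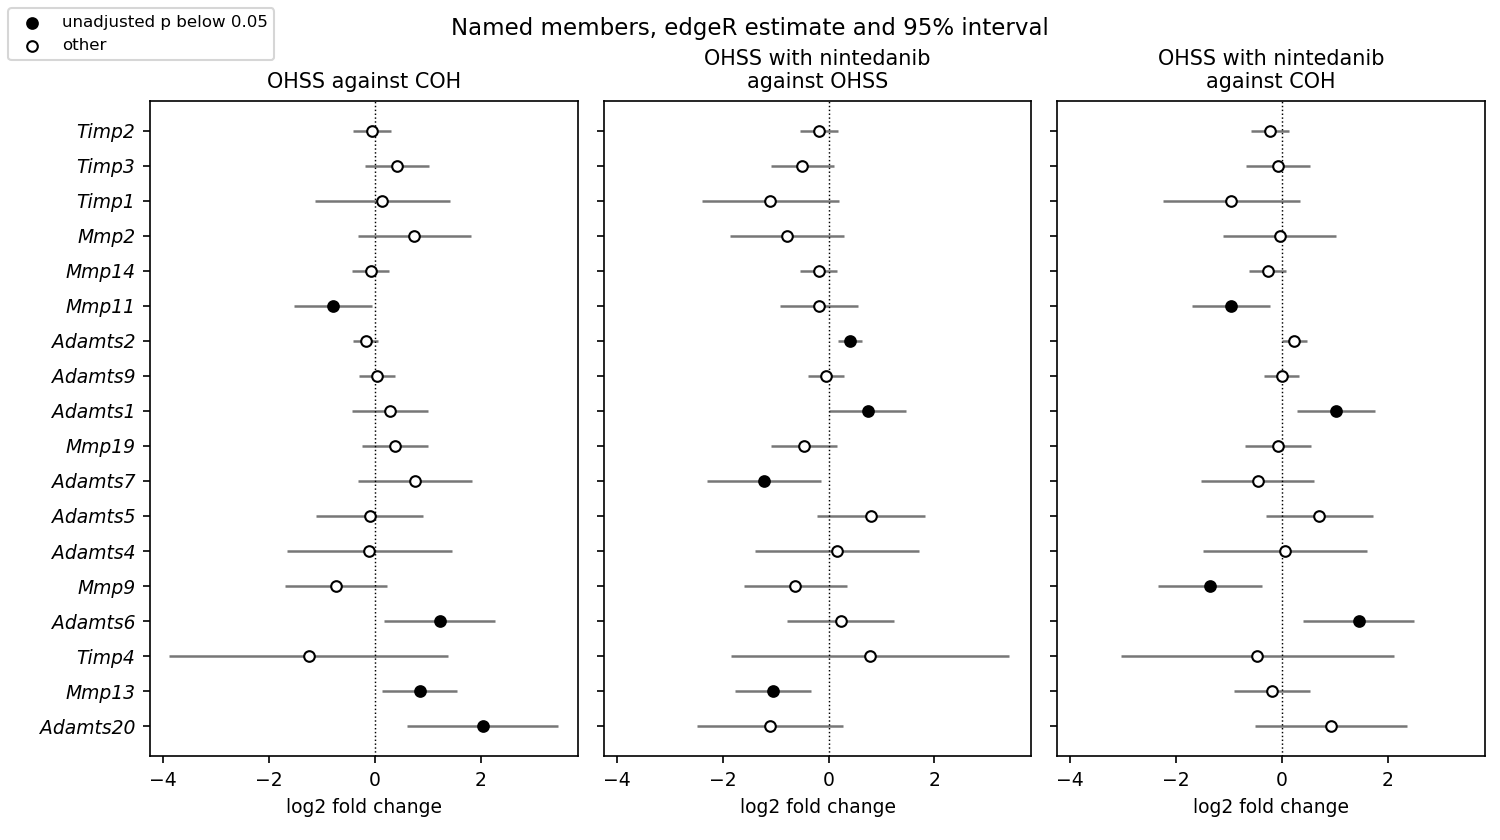
edgeR log2 fold change (horizontal axis) with its 95% interval for the 18 members described gene by gene, in the 3 comparisons; filled points have an unadjusted p under 0.05, and none passed after adjustment. Timp2, Mmp14 and Adamts9 have narrow intervals that include 0, while those of Timp1, Mmp2 and Timp4 are wide.

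The TIMPs showed no shared direction in OHSS. Timp1 stood at 419.5 and 408 CPM for COH, at 219 and 695 for OHSS and at 193 and 233 for nintedanib. The 2 OHSS libraries lay on either side of COH, and both nintedanib libraries were below both COH libraries. Its log2 fold change was 0.14 (SE 0.51, 95% interval -1.14 to 1.42) for OHSS against COH, -1.10 (SE 0.52, interval -2.39 to 0.19, edgeR adjusted p = 0.706) for nintedanib against OHSS and -0.96 (SE 0.51, adjusted p = 0.581) for nintedanib against COH. Without the second OHSS library the first of these was -0.93, so that library set its sign. Timp2 measured 405 and 493 CPM in the COH libraries, 430.1 and 439.5 in those of OHSS and 416 and 355 in the treated ones. Both nintedanib values lay under both OHSS values, by a log2 fold change of -0.17 (SE 0.14). Timp3 measured 300.2 and 363 CPM for COH, 353 and 532 for OHSS and 349 and 279 for nintedanib. It overlapped between OHSS and COH (log2 fold change 0.42, SE 0.24), and both nintedanib libraries were under both OHSS libraries (-0.50, SE 0.24). A Timp3 exon stretch of 1733 of its 8144 bases overlaps Syn3 on the other strand, but Syn3 had only 133 counts in all. Timp4, a scarcer inhibitor, measured 5.14 and 3.82 CPM in the COH libraries, 2.57 and 1.19 in those of OHSS and 5.97 and 0.530 in the treated ones. Its treated libraries were both the highest and the lowest of the 6. All 4 TIMPs had a lower mean with nintedanib than in COH, with a median log2 fold change of -0.34.

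Among the gelatinases, which cut denatured and basement membrane collagen, Mmp2 measured 331 and 249.9 CPM for COH, 693 and 278 for OHSS and 289 and 275 for nintedanib. Only the first OHSS library stood out, and the second lay within the COH range. The log2 fold change was 0.74 (SE 0.43, interval -0.33 to 1.81, edgeR adjusted p = 0.659) for OHSS against COH and -0.05 without that library. Against OHSS, nintedanib gave -0.78 (SE 0.43), or 0.003 without it. Mmp9, a gelatinase of leukocytes and other cells, measured 7.45 and 6.09 CPM in the COH libraries, 2.86 and 5.28 in those of OHSS and 2.15 and 3.12 in the treated ones. Both OHSS and both nintedanib libraries were below both COH libraries. Its log2 fold change was -0.73 (SE 0.38) for OHSS and -1.36 (SE 0.39, unadjusted p = 0.0153, edgeR adjusted p = 0.491) for nintedanib, each against COH.

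The summed macrophage markers were also lowest with nintedanib. They came to 516 and 562 CPM for COH, 559 and 389 for OHSS and 342 and 310.4 for nintedanib. With nintedanib 7 of 7 had a lower mean than in COH (median log2 fold change -0.18) and than in OHSS (median -0.27). One of them, Lyz2, measured 239.5 and 262 CPM in the COH libraries, 167 and 137 in those of OHSS and 82.2 and 50.7 in the treated ones. Lyz2 took a large part of the summed level and of its drop. Another marker, Adgre1, moved little, at 15.5 and 17.1 CPM for COH, 14.8 and 14.7 for OHSS and 14.4 and 14.3 for nintedanib. The 8 neutrophil markers summed to 2.48 to 7.72 CPM, with Elane at 0 and 3 of 8 passing the filter. Mmp8, the neutrophil collagenase and a low member, had 16 and 8 counts for COH, 4 and 10 for OHSS and 0 and 0 for nintedanib. A read pair appears to count as 2 here. With the zeros set to a floor of 3 pairs (6 counts) per library, the Mmp8 mean was 1.85-fold higher in COH than with nintedanib. For OHSS it was 1.16-fold higher. The first OHSS library, with 4 counts, lay under that floor itself, and counting error in the higher group is not covered. These folds are therefore not firm lower bounds. Mmp12 measured 1.86 and 3.61 CPM in the COH libraries, 4.53 and 1.25 in those of OHSS and 1.18 and 1.496 in the treated ones. Both nintedanib values were below both COH values. The part of leukocyte RNA in these differences was not tested.

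Mmp13, a collagenase that cuts fibrillar collagen, had its highest values in OHSS. It measured 2.08 and 1.996 CPM for COH, 3.54 and 3.80 for OHSS and 1.53 and 2.03 for nintedanib. OHSS was above both other groups without overlap, and COH and nintedanib overlapped. The log2 fold change was 0.85 (SE 0.28, unadjusted p = 0.0279, edgeR adjusted p = 0.542) for OHSS against COH and -1.04 (SE 0.29, unadjusted p = 0.0128, adjusted p = 0.653) for nintedanib against OHSS. Its promoter, printed above, holds the AP-1 letters 35 bases before the start. The summed immediate early genes, which include AP-1 subunits, had lower values in both OHSS libraries than in both COH ones, at 947 and 1282 CPM in the COH libraries, 547 and 725.5 in those of OHSS and 651 and 1423 in the treated ones. Fos itself measured 116 and 179.9 CPM for COH, 29.6 and 40.8 for OHSS and 58.2 and 228 for nintedanib. RNA levels of these genes do not measure AP-1 activity, and the part of AP-1 in the Mmp13 values was not tested.

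Mmp11, a protease of stromal cells that is activated inside the cell, had 176 and 298 CPM in the COH libraries, 161 and 113 in those of OHSS and 123 and 119 in the treated ones. Every OHSS and nintedanib library was below both COH libraries, although the first OHSS library came close to the first COH one. The log2 fold change against COH was -0.79 in OHSS (SE 0.29, unadjusted p = 0.0392, edgeR adjusted p = 0.550) and -0.97 with nintedanib (SE 0.29, unadjusted p = 0.0190, adjusted p = 0.491). Nintedanib against OHSS gave -0.18. Mmp11 shares 155 of its 2778 exon bases with Chchd10 on the other strand, which had 31898 counts, and whether counting used strand is not stated, so these values are uncertain. Mmp23, a membrane-bound MMP of reproductive tissue, measured 90.6 and 65.3 CPM for COH, 45.0 and 63.7 for OHSS and 60.9 and 47.4 for nintedanib, again lower than COH without overlap in both other groups.

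Mmp14, the membrane-type enzyme that activates pro-MMP2, was among the steadiest members. It measured 301 and 352 CPM in the COH libraries, 317 and 299.9 in those of OHSS and 295 and 246 in the treated ones. Its log2 fold changes were -0.08 (SE 0.14) for OHSS against COH and -0.19 and -0.27 for nintedanib against OHSS and COH, with the nintedanib libraries under both other groups. Mmp15, a related membrane-type enzyme, measured 84.7 and 88.1 CPM for COH, 65.1 and 82.4 for OHSS and 72.1 and 52.6 for nintedanib. Mmp16 ranged from 3.63 to 6.48 CPM, with both COH values the highest, and Mmp17 from 12.3 to 16.5 CPM with overlapping groups. Mmp19, known in ovarian follicles and corpora lutea, measured 39.99 and 36.5 CPM in the COH libraries, 62.2 and 37.7 in those of OHSS and 33.8 and 38.6 in the treated ones. Its first OHSS library alone stood out, as for Mmp2. Without that library the log2 fold change of 0.38 became -0.009. Of its 3533 exon bases, 789 overlap Tmem198b on the other strand. Mmp28 ranged from 1.32 to 4.58 CPM, lowest in OHSS.

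Of the ADAMTS genes that cut proteoglycans, Adamts1 is the best known in the ovary, where granulosa cells make it at ovulation and it cuts versican in the cumulus matrix. It measured 35.6 and 33.5 CPM for COH, 40.3 and 43.8 for OHSS and 49.2 and 90.9 for nintedanib. The 3 groups did not overlap, in the order COH, OHSS, nintedanib, and the second nintedanib library was far above the first. The log2 fold change was 0.28 (SE 0.29) for OHSS against COH, 0.74 (SE 0.29, unadjusted p = 0.0476, edgeR adjusted p = 0.669) for nintedanib against OHSS and 1.02 (SE 0.29, unadjusted p = 0.0149, adjusted p = 0.491) for nintedanib against COH. The granulosa markers summed to 2959 and 2945 CPM in the COH libraries, 3203 and 3205 in those of OHSS and 5008 and 4810 in the treated ones, with 8 of 8 higher with nintedanib than in OHSS. Immediate early genes were highest in the same nintedanib library as Adamts1, at 1423 CPM. The part of either in the Adamts1 values was not tested.

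Adamts5, an aggrecanase, measured 16.8 and 12.5 CPM for COH, 10.1 and 17.2 for OHSS and 16.5 and 31.2 for nintedanib, with overlapping groups throughout. Here too the second nintedanib library was the highest. Adamts4, another aggrecanase, measured 12.6 and 12.7 CPM in the COH libraries, 16.9 and 6.60 in those of OHSS and 6.80 and 19.4 in the treated ones, so the 2 COH values lay between those of each other group. Adamts9, which cuts versican and aggrecan, measured 114 and 122 CPM for COH, 113 and 130.0 for OHSS and 108 and 127 for nintedanib. Its log2 fold changes of 0.04, -0.05 and -0.01 were all near 0, and their signs turned when libraries were scaled by size alone (-0.02, 0.02 and 0.003). A730049H05Rik, on the other strand, shares 1381 of its 15048 exon bases. Adamts15 ranged from 4.46 to 7.67 CPM. Adamts20, known for its part in pigment cell development, had the largest log2 fold change among the members described gene by gene. It measured 0.506 and 0.560 CPM in the COH libraries, 2.93 and 1.45 in those of OHSS and 1.39 and 0.655 in the treated ones. OHSS was above both other groups, with a log2 fold change of 2.03 over COH (SE 0.57, unadjusted p = 0.0141, edgeR adjusted p = 0.533) and -1.10 for nintedanib against OHSS, all at low counts.

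Adamts2 removes the N-terminal propeptide of fibrillar procollagens. It measured 140.4 and 129.8 CPM for COH, 119 and 120.5 for OHSS and 161 and 156 for nintedanib. No group overlapped another, with OHSS lowest and nintedanib highest. The log2 fold change for nintedanib against OHSS was 0.41 (SE 0.09, interval 0.17 to 0.64, unadjusted p = 0.00617, edgeR adjusted p = 0.638). With DESeq2 it was 0.39 with an adjusted p of 0.0414, the one call of a member by any tool in these comparisons, and limma voom did not call it. Against COH it was -0.17 (SE 0.09) in OHSS and 0.23 (SE 0.09) with nintedanib. The other procollagen N-proteinases were scarce, with Adamts3 at 1.49 to 2.19 CPM and Adamts14 at 4.59 to 7.46 CPM, and their groups overlapped.

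Adamts6, a relative of Adamts10, measured 2.53 and 1.72 CPM in the COH libraries, 5.53 and 4.39 in those of OHSS and 3.95 and 7.67 in the treated ones. Both OHSS groups, with and without the drug, were above COH, by 1.22 on the log2 scale (SE 0.42, unadjusted p = 0.0294, edgeR adjusted p = 0.542) without and 1.45 (SE 0.42, unadjusted p = 0.0155, adjusted p = 0.491) with nintedanib. Adamts7, which cuts cartilage oligomeric matrix protein, measured 44.2 and 25.4 CPM for COH, 78.5 and 39.1 for OHSS and 29.5 and 21.1 for nintedanib. Nintedanib lay under OHSS without overlap (log2 fold change -1.22, SE 0.43, unadjusted p = 0.0335, adjusted p = 0.653), and the first OHSS library was highest, as for Mmp2 and Mmp19. It shares 122 of 6282 exon bases with Tbc1d2b on the other strand. Adamts10, which binds fibrillin, measured 101 and 98.4 CPM in the COH libraries, 88.4 and 101 in those of OHSS and 108 and 129 in the treated ones, the treated libraries above all others. Adamts12 ranged from 9.01 to 16.3 CPM, Adamts16 from 1.29 to 2.25, Adamts19 from 16.9 to 30.95 and Adamts17 from 1.49 to 4.34 CPM.

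By family, 5 of 15 tested MMPs, 8 of 18 ADAMTS genes and 2 of 4 TIMPs had a higher mean in OHSS than in COH. With nintedanib, 3 of 15 MMPs and 11 of 18 ADAMTS genes were higher than in OHSS, and 3 of 15 and 10 of 18 were higher than in COH. The median log2 fold change of nintedanib against OHSS was -0.19 for MMPs and 0.19 for ADAMTS genes, and against COH -0.27 and 0.09. With libraries scaled by size alone these medians kept their signs, but 5 of 15 MMPs and 13 of 18 ADAMTS genes were higher with nintedanib than in OHSS, and 6 of 18 ADAMTS genes were higher in OHSS than in COH. Over all 37 tested members, 15, 15 and 13 had a higher mean in the 3 comparisons, or 40.5%, 40.5% and 35.1%, against 49.6%, 51.5% and 49.9% of all genes. The medians were -0.08, -0.07 and -0.08, beside -0.003, 0.01 and -0.001 over all genes. Setting the zeros of Mmp8 to the floor could not move these medians, since Mmp8 stayed below the median in both nintedanib comparisons. The median size of the change was 0.38, 0.46 and 0.38 in members and 0.23, 0.22 and 0.23 in all genes. Groups did not overlap for 13 (35.1%), 15 (40.5%) and 17 (45.9%) members, against 44.1%, 36.2% and 45% of all genes. Single libraries moved these counts and medians. At an unadjusted p under 0.05, the 5 members of OHSS against COH became 2 or 0 without the first or second COH library and 3 or 8 without the first or second OHSS library. The 5 of nintedanib against OHSS became 9 without the first nintedanib library, and the 5 of nintedanib against COH became 2 without the second COH library and 8 or 3 without the first or second nintedanib library. Without the first OHSS library the median of nintedanib against OHSS was 0.12, and without the first nintedanib library it was -0.20. Scaled by library size alone it was 0.007.

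Summed per kilobase, MMP transcripts came to 285 and 302 CPM per kb for COH, 372 and 233 for OHSS and 234 and 212 for nintedanib. TIMP transcripts came to 614 and 632 in the COH libraries, 400.5 and 961 in those of OHSS and 368 and 388 in the treated ones. The ratio of the MMP to the TIMP sum was 0.464 and 0.478 for COH, 0.929 and 0.242 for OHSS and 0.636 and 0.546 for nintedanib. The 2 OHSS libraries held the highest and the lowest ratio of the 6, and both nintedanib values were above both COH values. Yet both MMP sums with nintedanib were below both COH sums, and Timp1 alone made up 59.0 to 81.4% of the TIMP sum. The ratio of Mmp2 and Mmp14 together to Timp2 per kb overlapped between the groups. It was 1.43 and 1.05 for COH, 2.34 and 1.18 for OHSS and 1.27 and 1.35 for nintedanib. For ADAMTS the sums were 58.9 and 53.6 in the COH libraries, 62.5 and 56.4 in those of OHSS and 61.4 and 75.0 in the treated ones, and the ratio to the TIMP sum was 0.0959 and 0.0849, 0.156 and 0.0587, and 0.167 and 0.193. These ratios compare summed transcripts and do not measure how far the proteases were inhibited. No test of these ratios is given, since an exact two-sided permutation test of 2 libraries against 2 cannot go below p = 0.333. Mmp2 and Timp1 set most of the split: their ratio per kb was 0.834 in the first and 0.105 in the second OHSS library, beside 0.161 to 0.395 in the other 4.

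**Figure D4:**
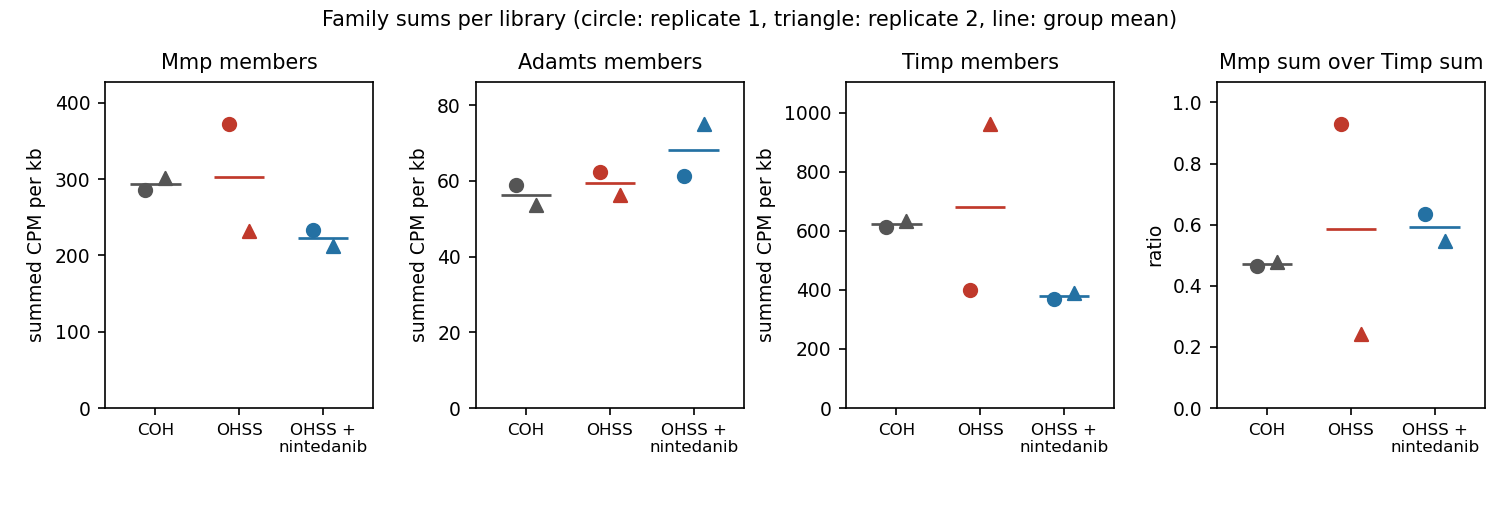
Summed CPM per kb of MMP, ADAMTS and TIMP members and the ratio of the MMP to the TIMP sum, for each library (circles replicate 1, triangles replicate 2, lines the mean of 2). The OHSS libraries lie far apart, with ratios of 0.929 and 0.242, while COH libraries are at 0.464 and 0.478.

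The first OHSS library, high in Mmp2, Mmp19 and Adamts7 and low in Timp1, also differed from the second in other markers. Theca and stroma markers summed to 3668 CPM in the first and 2470 in the second, macrophage markers to 559 and 389, adipocyte markers to 78.2 and 39.9 with Lep at 0, erythroid markers to 60.4 and 173, and surface epithelium markers to 77.3 and 123. The part of these in the split was not tested. Total counts of the 2 libraries were 32390829 and 30993703.

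Genes around the proteases were followed in lists, none of which had a member called by edgeR in any comparison. The regulators and activators, such as the MMP inhibitor Reck, the proprotein convertase Furin and the clearance receptor Lrp1, had higher means in OHSS than in COH for 10 of 12 (median log2 fold change 0.41), and 4 of those 10, with none of the lower ones, passed an unadjusted p of 0.05, at which 4.59% of all genes were higher. Against OHSS, nintedanib gave lower means for 10 of 12 (median -0.53), of which 5 passed it beside 3.47% of all genes, and against COH 7 of 12 were higher (median 0.13). DESeq2 called 3, 1 and 0 of them in the 3 comparisons, beside 1.89%, 1.17% and 2.36% of all genes. In the other protease and matrix lists DESeq2 called 0, 1 and 2 genes of the plasminogen activator system, 0, 0 and 1 of the ADAMTS-like list, 1, 0 and 0 of the cumulus matrix list and 1, 1 and 0 of the crosslinking enzymes. Of the marker lists it called 0, 0 and 4 granulosa, 1, 2 and 0 endothelial and 0, 1 and 1 macrophage genes. Luteal markers gave 1, 0 and 0, and theca and stroma markers 0, 0 and 1. Immediate early genes gave 3, 1 and 0, and mitochondrial transcripts 0, 1 and 0. With limma voom 0 were called in every list. A2m, a broad protease trap, measured 2.50 and 3.15 CPM for COH, 9.90 and 23.7 for OHSS and 4.61 and 2.21 for nintedanib, which is 2.57 on the log2 scale for OHSS (SE 0.56; adjusted p = 0.492 by edgeR) and -2.30 for the drug against OHSS (SE 0.55; adjusted p = 0.645). Lrp1, which takes up A2m complexes and several proteases, measured 722 and 672 CPM in the COH libraries, 1248 and 1020 in those of OHSS and 804 and 639.7 in the treated ones. Spock1, a matrix proteoglycan, measured 0.450 and 0.350 CPM for COH, 8.10 and 2.57 for OHSS and 1.70 and 2.12 for nintedanib. Spock3, a relative, measured 4.16 and 0.210 CPM in the COH libraries, 37.6 and 4.29 in those of OHSS and 1.28 and 0.468 in the treated ones, so for both genes the first OHSS library was far above the second. Luteal markers and mitochondrial transcripts had the same directions as this list. Of the luteal markers, 7 of 8 had higher means in OHSS than in COH and 7 of 8 lower ones with nintedanib than in OHSS, and for mitochondrial transcripts it was 8 of 8 in both. The luteal markers summed to 26190 and 28030 CPM for COH, 31860 and 35840 for OHSS and 26830 and 25550 for nintedanib, and the mitochondrial ones to 46280 and 54250, 60580 and 61870, and 50570 and 47110 CPM. Their part in the values of this list was not tested.

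In the plasminogen activator system, whose protease plasmin can activate MMPs, 5 of 9 tested genes had higher means in OHSS than in COH (median 0.11) and 6 of 9 with nintedanib than in OHSS (median 0.15). At an unadjusted p of 0.05, 1 passed in each direction in the first comparison, and 3 higher and 1 lower in the second, beside 4.59% of all genes higher and 4.24% lower in the first and 3.95% and 3.47% in the second. Plau, the urokinase, measured 142.5 and 123 CPM in the COH libraries, 274 and 159.8 in those of OHSS and 127 and 109 in the treated ones, so OHSS was highest. Its inhibitor Serpina5 measured 25.8 and 33.7 CPM for COH, 22.1 and 22.7 for OHSS and 52.9 and 50.6 for nintedanib, or 1.21 above OHSS on the log2 scale (SE 0.16; adjusted p = 0.382 by edgeR). Serpine2, an inhibitor made by granulosa cells, measured 258 and 174 CPM in the COH libraries, 269.5 and 245 in those of OHSS and 352 and 409 in the treated ones. Plat measured 103 and 106 CPM for COH, 97.4 and 83.2 for OHSS and 75.3 and 78.6 for nintedanib. The 2 libraries of a group lay closer together for Serpina5 and Plat than for Timp1 and Mmp2 in OHSS.

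For the substrates of these enzymes, 11 of 14 proteoglycan and matrix substrates were lower in OHSS than in COH (median -0.22), and 12 of 14 were higher with nintedanib than in OHSS (median 0.22). Against COH, nintedanib gave 6 of 14 higher and 8 lower (median -0.03). At an unadjusted p of 0.05, 1 of the 11 and 3 of the 12 passed, beside 4.24% of all genes lower in the first comparison and 3.95% higher in the second. Endothelial markers had the same directions: 5 of 6 had lower means in OHSS than in COH (median -0.22) and 6 of 6 higher ones with nintedanib than in OHSS (median 0.31). They summed to 524.5 and 524.7 CPM in the COH libraries, 414 and 467 in those of OHSS and 552.5 and 575 in the treated ones. Their part in the substrate values was not tested. Versican (Vcan), the main substrate of Adamts1, measured 138 and 179 CPM for COH, 99.8 and 101.5 for OHSS and 126 and 187 for nintedanib. Its log2 fold change was -0.66 (SE 0.23) in OHSS and 0.63 (SE 0.23) for nintedanib against OHSS. Ptx3, which crosslinks the hyaluronan of the cumulus matrix, measured 5.62 and 4.24 CPM in the COH libraries, 1.29 and 1.58 in those of OHSS and 4.02 and 3.09 in the treated ones. Of the 7 tested cumulus matrix genes, 3 were higher in OHSS than in COH and 6 were higher with nintedanib than in OHSS (median 0.91). At an unadjusted p of 0.05, 1 was lower in the first comparison and 1 higher in the second, beside 4.24% and 3.95% of all genes. Has2 and Itih4 had group means under 1 CPM. Tnfaip6 overlapped, at 2.89 and 1.52 CPM in OHSS and 1.91 and 6.39 with nintedanib. Procollagen and crosslinking enzymes were higher for 4 of 9 in OHSS and for 6 of 9 with nintedanib against OHSS (median 0.23), or 3 and 7 of 9 with libraries scaled by size alone. Among them Plod1, a lysyl hydroxylase, had the order of Adamts2, at 112 and 111 CPM for COH, 91.7 and 88.3 for OHSS and 123 and 120.3 for nintedanib.

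The other protease lists are given by their counts. ADAM sheddases had higher means in OHSS for 5 of 8 (median 0.04) and with nintedanib against OHSS for 4 of 8 (0.02), which became 2 of 8 (-0.02) and 6 of 8 (0.09) when libraries were scaled by size alone. For ADAMTS-like proteins and papilin the counts were 3 of 7 and 2 of 7, with medians of -0.004 and -0.14, and 4 of 7 (0.01) in OHSS with RLE scaling. Adamtsl2 measured 14.3 and 15.7 CPM in the COH libraries, 33.1 and 19.4 in those of OHSS and 39.2 and 38.4 in the treated ones, above COH in both groups, as for Adamts6. Cysteine cathepsins and cystatins were higher for 4 of 8 and 2 of 8 (medians 0.02 and -0.22), the first median being -0.04 when scaled by size alone, and Ctsl measured 373 and 309 CPM for COH, 884 and 515 for OHSS and 463 and 741 for nintedanib. Of 4 tested astacin and tolloid proteases, 2 had higher means in OHSS and 2 with nintedanib against OHSS, and 0 passed an unadjusted p under 0.05 in any comparison. With libraries scaled by size alone the second count was 3 of 4.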

How the data were processed

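The authors deposited raw whole-number counts per Ensembl gene, per the file headers, and a read summary for each library. The submitters' processing notes list the build mm8 and, among tools, HISAT2 2.1.0, StringTie 1.3.3b and Trimmomatic 0.36. Neither the counter nor its annotation and strand setting is given in the sources used here. Counts came to 72.1 to 74.0% of reads and 144 to 148% of pairs. Low counts were filtered with filterByExpr in edgeR 4.0.16 (R 4.3.3), libraries scaled by TMM (0.961 to 1.03), and the 3 groups fitted together with the two-sided quasi-likelihood test, with 2.41 prior and 3 residual degrees of freedom. SEs came from the F statistic. DESeq2 1.42.0, limma voom (limma 3.58.1) and other settings were alternatives. The scripts were tested on simulated data. All 46 members, and 51633 of the 51826 gene IDs, were found in GENCODE M21, used for exon lengths and overlaps. GENCODE M21 is built on GRCm38, not on the listed mm8. Its exon lengths and overlaps may differ from those of the annotation used for counting. Members described gene by gene were a list of 12 (Timp1 to Timp4, Mmp2, Mmp9, Mmp14, Mmp19, Adamts1, Adamts4, Adamts5, Adamts9) and others of at least 1 mean CPM with an unadjusted p under 0.05, 18 in all. Up to 4 genes of each other list, by smallest p in a comparison, could be named. Library values of Mmp8, Mmp12, Mmp15, Mmp23 and Adamts10 fall outside this rule and were chosen after they were seen. The members and lists were chosen with earlier results of these data known.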

Additional observations from a re-analysis of the deposited data

How the results depend on the processing

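With 2 libraries a group, precision is limited by the spread between libraries, and for members under 1 CPM also by counting error. The counts of members called stayed at 0 under other scalings, filters, limma voom, a fit of only the 2 groups and each library left out, and DESeq2 called 1 (Adamts2, nintedanib against OHSS, log2 fold change 0.39, adjusted p = 0.0414). At an unadjusted p under 0.05, the count of 5 for nintedanib against OHSS became 3 in a fit of only the 2 groups. Leaving out each library gave 0 to 8 members for OHSS against COH, 4 to 9 for nintedanib against OHSS and 2 to 8 for nintedanib against COH, and medians of -0.14 to -0.07, -0.20 to 0.12 and -0.22 to -0.01. The replicate block called 0 members and gave 4, 7 and 5 at an unadjusted p under 0.05. Deviations of libraries with the same replicate number correlated at -0.0007 (COH and OHSS), 0.048 (COH and nintedanib) and -0.002 (OHSS and nintedanib). With 2 libraries a group, these values cannot settle whether replicate numbers paired the libraries. Scaling by library size alone turned the median of nintedanib against OHSS to 0.007. No scaling moved the median of all genes by over 0.1. Single fold changes were followed across settings for the 18 members described gene by gene, not for all 37 tested, and 33 of these results, none called in the setting concerned, changed sign. With scaling by library size alone Adamts9 became -0.0196, 0.0228 and 0.0032. With limma voom Adamts4 became -0.11 (nintedanib against COH), Timp1 -0.0849 (OHSS against COH) and Timp4 -0.0311 (nintedanib against OHSS). With the replicate block Timp1 became -0.0319 for OHSS against COH. Leaving out a library turned the sign of others, given as the range of the log2 fold change, and the lone library left in a group was then assumed to vary like the other groups. For OHSS against COH these were Adamts4 (-0.92 to 0.41), Adamts5 (-0.54 to 0.25), Adamts9 (-0.0723 to 0.15), Mmp14 (-0.19 to 0.0391), Mmp19 (-0.0087 to 0.69), Mmp2 (-0.0509 to 1.25), Timp1 (-0.93 to 0.76), Timp2 (-0.18 to 0.10). For nintedanib against OHSS these were Adamts4 (-0.79 to 0.97), Adamts6 (-0.33 to 0.62), Adamts9 (-0.17 to 0.0633), Mmp11 (-0.41 to 0.081), Mmp2 (-1.30 to 0.003), Timp4 (-1.82 to 1.66). For nintedanib against COH these were Adamts4 (-0.89 to 0.61), Adamts9 (-0.13 to 0.10), Mmp19 (-0.18 to 0.0106), Mmp2 (-0.24 to 0.17), Timp3 (-0.25 to 0.0735), Timp4 (-3.08 to 0.41). The cause of these sign changes was not tested.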
